A study of Mus musculus with 6 samples.

Results

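The mitochondrial respiratory chain passes electrons from metabolic fuels to oxygen and uses the proton gradient this builds to make ATP. Complex II (succinate dehydrogenase) feeds electrons into the ubiquinone pool, complex III (cytochrome bc1) hands them to cytochrome c, complex IV (cytochrome c oxidase) passes them to oxygen, and complex V (ATP synthase) uses the returning protons. Most subunits are made from nuclear genes, and a small core is made from the mitochondrial genome. Complex II is entirely nuclear. Hepatocytes are rich in mitochondria and use this ATP for gluconeogenesis, urea synthesis and secretion.

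The genes described here are the subunits of complexes II to V and cytochrome c, chosen by gene symbol alone from the authors' deposited table. The symbols taken were Sdha to Sdhd, those beginning with Uqcr, Cox4 to Cox8 or Atp5 (without Atp5s, a coupling factor gene, and Atp5sl), Cycs, Cyc1, and the mitochondrial Co, Cytb and Atp genes. This gave 51 of 16426 rows, of which 45 are nuclear and 6 mitochondrial genes. Complex II has 4 of them, complex III 9, complex IV 19 and complex V 18, and cytochrome c, Cycs, is the remaining gene. Uqcrc1, a core protein of complex III, was not analysed here.

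The RNA came from bulk liver of male C57/BL mice, 3 labelled as normal and given saline and 3 labelled as model, in which 20% CCl4 over 10 weeks served to produce fibrosis. Liver cytochromes turn this solvent, carbon tetrachloride, into toxic radicals. The authors' deposited table compares libraries named ly_A with libraries named ly_B, 3 of each, and neither name matches a label of a sample. Differences are therefore stated only as ly_A against ly_B, never as an effect of CCl4. The values per library were not used, so no spread between libraries, no level and no depth is given, and the labelled tissue was not checked against marker levels. In bulk tissue fewer cells of a type and less RNA per cell cannot be told apart. The labels do not say that each library is a separate animal, so the p-values measure only the spread between these libraries.

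Transcripts of the respiratory complexes were shifted towards ly_A. Of the 51 genes, 47 were tested by the authors, and 35 were higher in ly_A and 0 in ly_B at an adjusted p under 0.05 per the authors' deposited table. The background was 18.1% of all tested genes called higher in ly_A and 17.7% called higher in ly_B per the authors' deposited table. At an unadjusted p under 0.05, 36 members were higher in ly_A and again 0 in ly_B per the authors' deposited table, whose adjusted p-values come from DESeq2 per the submitters' processing notes. Over the tested members the log2 fold change had a median of 0.86, which is 1.81-fold, against 0.07 over all tested genes of the authors' deposited table. Most of these transcripts are short, and against other genes of the same transcript length the members' median was 0.24. Of other genes with transcripts under 600 nt, 41.1% were called higher in ly_A per the authors' deposited table. Values of single genes ran from -0.41 for Sdha, which did not pass, to 3.86 for Cox7a1 per the authors' deposited table. At least a 2-fold difference towards ly_A was reached by 17 called members, against a background of 10.9% towards ly_A and 7.85% towards ly_B per the authors' deposited table.

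**Figure D1:**
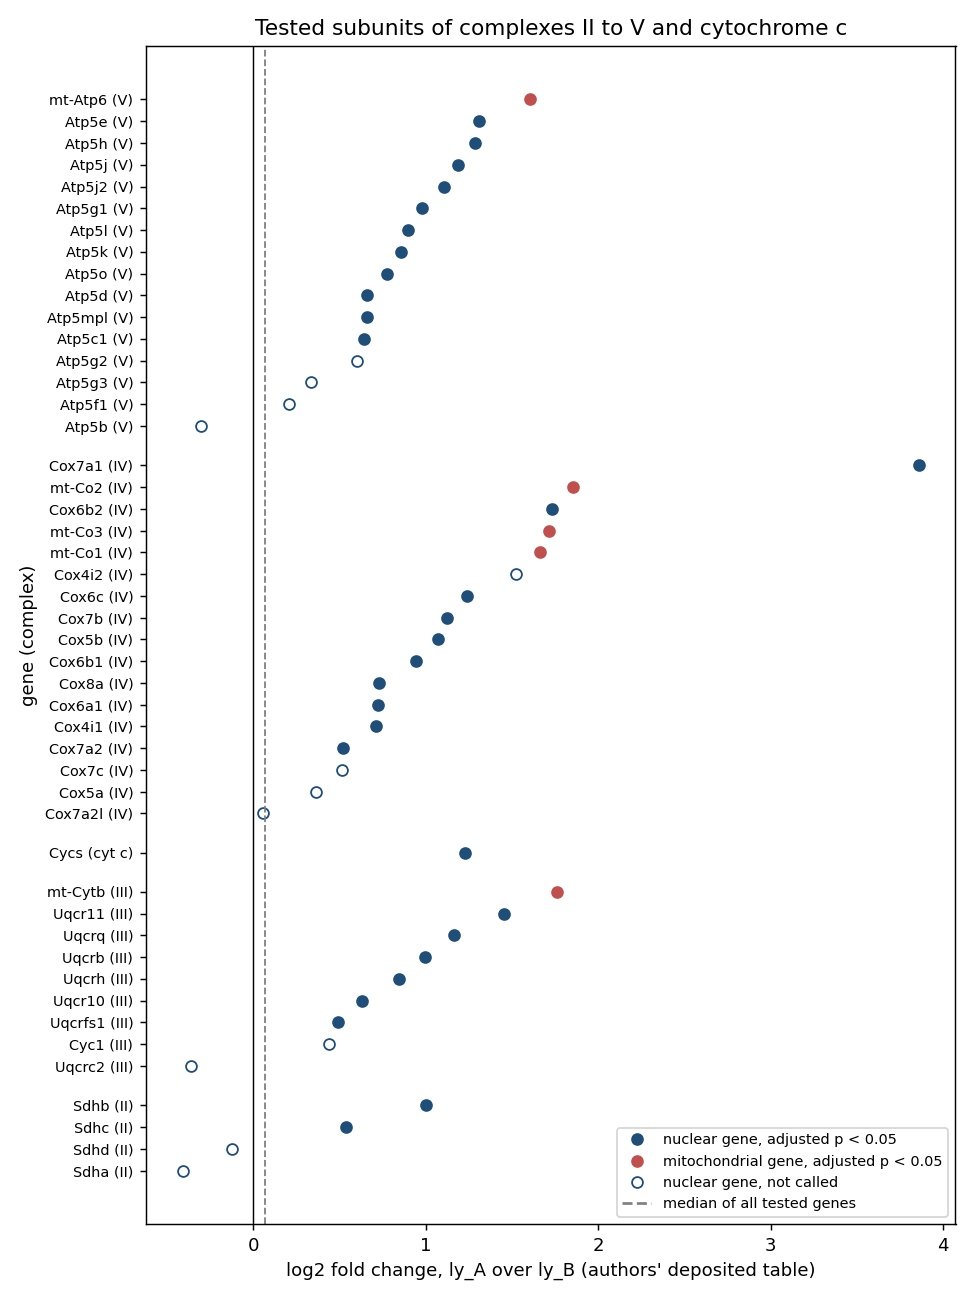
Log2 fold change, ly_A over ly_B, of each of the 47 tested subunit genes (points), grouped by complex, with filled points for an adjusted p under 0.05 and red points for mitochondrial genes. All 35 filled points lie to the right of zero, and the mitochondrial genes lie between 1.61 and 1.85; the dashed line is the median of all tested genes, 0.07.

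The tested mitochondrial members formed a narrow group. Each of the 5 tested mitochondrial genes was higher in ly_A, with a median log2 fold change of 1.71, or 3.28-fold, per the authors' deposited table. Of the complex IV core, mt-Co1, which carries the site where oxygen is reduced, stood at 1.66 (adjusted p = 7.28e-07) per the authors' deposited table. Its partner mt-Co2, which takes electrons from cytochrome c, stood at 1.85 (adjusted p = 0.00079), and mt-Co3 stood at 1.71 (adjusted p = 8.7e-05) per the authors' deposited table. The cytochrome b gene of complex III, mt-Cytb, stood at 1.76 with the smallest adjusted p of these 5 genes (2.58e-07) per the authors' deposited table. The proton channel subunit of ATP synthase, mt-Atp6, stood at 1.61 (adjusted p = 0.000962) per the authors' deposited table. The 5 values thus ran from 1.61 to 1.85 on the log2 scale. Mitochondrial genes of complex I, which are not members, did not all keep to this range. The 7 of them had a median of 1.51, and mt-Nd4 stood at 1.92, per the authors' deposited table. mt-Atp8, whose reading frame overlaps that of mt-Atp6, was not tested: its deposited log2 value was 3.38 with a p of 0.361 per the authors' deposited table. Nuclear copies of mitochondrial sequence can share reads with these genes, so single values are uncertain.

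By comparison, 30 of the 42 tested nuclear members were higher in ly_A, with a median log2 fold change of 0.75, or 1.68-fold, per the authors' deposited table. The background for both counts was 18.1% of all tested genes higher in ly_A per the authors' deposited table. The difference between the mitochondrial and the nuclear members was not tested. All 5 tested mitochondrial values lay above those of every tested nuclear member except Cox7a1 and Cox6b2 per the authors' deposited table. These are isoforms known chiefly from other tissues.

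Complex II was split between its members. Sdhb, the iron-sulfur protein, was higher in ly_A at 0.9996 (adjusted p = 0.000122), and the membrane anchor Sdhc at 0.54 (adjusted p = 0.0168), per the authors' deposited table. Sdha, the flavoprotein that oxidises succinate, had a value of -0.41 (adjusted p = 0.27) and the other anchor, Sdhd, a value of -0.13 (adjusted p = 0.757) per the authors' deposited table. Complex II thus had 2 of 4 genes called, against 18.1% of all tested genes called higher in ly_A, and a median of 0.21 per the authors' deposited table. Against other genes of the same transcript length its median was -0.05, so its sign turned.

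In complex III, the small subunits, all with transcripts under 600 nt, were called together. Of other genes of that length, 41.1% were called higher in ly_A per the authors' deposited table. All 5 of Uqcr10, Uqcr11, Uqcrb, Uqcrh and Uqcrq were higher in ly_A, from 0.63 for Uqcr10 (adjusted p = 0.0133) to 1.45 for Uqcr11 (adjusted p = 3.04e-08), per the authors' deposited table. Uqcrq stood at 1.17 and Uqcrb at 0.997, while the hinge protein Uqcrh, which helps cytochrome c dock, stood at 0.84 per the authors' deposited table. The redox subunits made in the nucleus had smaller values as deposited. Uqcrfs1, the Rieske iron-sulfur protein, was higher in ly_A at 0.49 (adjusted p = 0.0212), and Cyc1, cytochrome c1, had a value of 0.44 (adjusted p = 0.126) per the authors' deposited table. Against other genes of the same transcript length they did not stand apart. The small subunits then had a median of 0.19, Uqcrfs1 a value of 0.24 and Cyc1 a value of 0.18. Uqcrc2, a large matrix-side core protein, had a value of -0.36 (adjusted p = 0.332) per the authors' deposited table. Cycs, the soluble carrier between complexes III and IV that also triggers apoptosis when released, was 2.35-fold higher in ly_A (log2 1.23, adjusted p = 0.000525) per the authors' deposited table.

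In complex IV, 13 of 17 tested genes were higher in ly_A, 10 of them nuclear, against 18.1% of all tested genes, per the authors' deposited table. The median of its nuclear members was 0.83, or 0.18 against other genes of the same transcript length. Among the forms that liver is known to use, Cox6c stood at 1.24 (adjusted p = 5.81e-07), Cox7b at 1.13 (adjusted p = 3.07e-05), Cox5b at 1.07 (adjusted p = 9.72e-05) and Cox6b1 at 0.94 (adjusted p = 3.86e-05) per the authors' deposited table. Cox8a at 0.73, Cox6a1 at 0.72, the ATP-sensing Cox4i1 at 0.71 and Cox7a2 at 0.52 were also higher in ly_A per the authors' deposited table, with a largest adjusted p of 0.00612. Cox7c at 0.52 (adjusted p = 0.109) and Cox5a at 0.36 (adjusted p = 0.232) did not pass per the authors' deposited table. Cox7a2l, a factor that joins complex III to complex IV in supercomplexes, had a value of 0.06 (adjusted p = 0.883) per the authors' deposited table.

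Isoforms known from other tissues included the most extreme value. Cox7a1, the heart and muscle form of subunit 7a, which is also found in brown fat, had a log2 value of 3.86 (adjusted p = 3.3e-08) against 0.52 for its liver counterpart Cox7a2 per the authors' deposited table. Cox6b2, known from testis, stood at 1.73 (adjusted p = 0.0411) against 0.94 for Cox6b1 per the authors' deposited table. Cox4i2, the form linked to lung and low oxygen, had a value of 1.52 (adjusted p = 0.502) per the authors' deposited table. The muscle forms Cox6a2 and Cox8b were not tested, and their deposited values of 5.99 and 23.64 with a p of 1 are fitted values and not folds between levels per the authors' deposited table. Of 9 striated muscle marker genes with a row, 0 were tested per the authors' deposited table. Of 5 brown fat markers, 3 were tested, and Elovl3, which liver also makes, at 7.47 and the coactivator Ppargc1a at 0.85 (adjusted p = 0.0394) were higher in ly_A per the authors' deposited table. Cidea, a lipid droplet protein of brown fat, had a value of -0.30 (adjusted p = 0.911) per the authors' deposited table. The part of other cell types in the Cox7a1 value was not tested.

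In complex V, 12 of 16 tested genes were higher in ly_A, against 18.1% of all tested genes, per the authors' deposited table. The parts of the enzyme differed in how many passed, but no difference between parts was tested. The 3 central stalk genes were all called: Atp5e at 1.31 (adjusted p = 8.44e-07), Atp5d at 0.66 (adjusted p = 0.00425) and Atp5c1 at 0.64 (adjusted p = 0.00845) per the authors' deposited table. In the catalytic head, Atp5b, the beta subunit where ATP is formed, had a value of -0.30 (adjusted p = 0.407) per the authors' deposited table. Atp5a1, the alpha subunit, was not tested, with a deposited log2 value of 2.73 and a p of 0.495 per the authors' deposited table. This gene is known to be abundant in liver, and why it was left untested is not known, so its value is doubtful.

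The peripheral stalk holds the head still while the ring turns. There Atp5h at 1.29 (adjusted p = 4.67e-05), Atp5j at 1.19 (adjusted p = 1e-06) and Atp5o at 0.77 (adjusted p = 0.000856) were higher in ly_A, and Atp5f1 had a value of 0.21 (adjusted p = 0.452) per the authors' deposited table. The 3 genes Atp5g1, Atp5g2 and Atp5g3 encode the same mature c subunit of the rotating ring behind different targeting peptides. Only Atp5g1 among these 3 passed, at 0.98 (adjusted p = 0.000445), while Atp5g2 had a value of 0.60 (adjusted p = 0.344) and Atp5g3 a value of 0.33 (adjusted p = 0.175) per the authors' deposited table. The difference among the 3 was not tested. The 4 nuclear members counted here as membrane part, outside the c ring and the stalks, were higher in ly_A. Atp5j2 stood at 1.10, Atp5l at 0.89, Atp5k at 0.86 and Atp5mpl at 0.66 (largest adjusted p = 0.0431, for Atp5l) per the authors' deposited table. Against other genes of the same transcript length, the membrane part, with mt-Atp6, had a median of only 0.09. The peripheral stalk then had a median of 0.50, the central stalk 0.39 and the c ring -0.15, while Atp5b stood at -0.56.

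Among genes that the symbol rule leaves out, 3 known subunits and partners were also higher in ly_A. Usmg5, another small membrane subunit of ATP synthase, stood at 0.85 (adjusted p = 0.00034), Atpif1, the inhibitor of reverse ATP synthase activity, at 0.80 (adjusted p = 0.0223) and Ndufa4, now counted with complex IV, at 0.78 (adjusted p = 0.000695) per the authors' deposited table. These 3 were picked after the members' values were seen, so they are no support for the members' shift and do not stand for other genes left out. Many subunit genes have processed pseudogenes of near-identical sequence, which can share reads, so single values are uncertain.

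Transcript length moved with these differences, though not evenly over the members. Most subunit transcripts are short, and the length used was the median over protein-coding transcripts in GENCODE M21. Of the 16 tested nuclear members with transcripts under 600 nt, 14 were higher in ly_A, with a median of 0.88 per the authors' deposited table. Of the 12 from 600 to under 1000 nt, 9 were higher in ly_A, with a median of 0.92 per the authors' deposited table. Of the 14 with transcripts of 1000 nt and over, 7 were higher in ly_A, with a median of 0.46 per the authors' deposited table. The 3 of these of 2000 nt and over had a median of 0.98, with Atp5g1 and Cycs called and Sdha not, per the authors' deposited table. Of other genes under 600 nt, 41.1% were called higher in ly_A, and 32.8% of those from 600 to under 1000 nt. That share was 22.7% from 1000 to under 2000 nt and 15.5% from 2000 to under 4000 nt, from the authors' deposited table. The 4 members with a value below 0, which were Sdha, Uqcrc2, Atp5b and Sdhd, all had transcripts over 1000 nt, of 2900, 1896, 1916 and 1231 nt. Across the 42 tested nuclear members, Spearman's rho between length and log2 fold change was -0.46, across 14080 tested genes it was -0.21, and across the 4682 of these under 2000 nt it was -0.14, all from the authors' deposited table. These are descriptions across genes that share the same libraries, with no test.

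Among genes that are not members, the median fell from each length class to the next longer one. The median log2 fold change was 0.80 over 219 other genes with transcripts under 600 nt and 0.48 over 893 from 600 to under 1000 nt per the authors' deposited table. It was 0.25 over 3526 from 1000 to under 2000 nt, 0.01 over 5927 from 2000 to under 4000 nt and -0.17 over 3468 of 4000 nt and over per the authors' deposited table. Of the shortest class, 2.74% were called higher in ly_B per the authors' deposited table. Of the 47 members, 33 stood above the median of other genes in their length class. The median above the length class was 0.19 for the nuclear members and 1.37 for the mitochondrial members. Cycs, with a transcript of 3123 nt, stood 1.22 above its class, Cox7a1 3.06, Atp5g1 0.97 and Cox7b 0.87. Among called genes, 4 fell below the median of their class, namely Uqcr10 (-0.18), Atp5mpl (-0.15), Cox6a1 (-0.081) and Cox8a (-0.076). The part of transcript length, or of RNA quality, in the differences between the sets was not tested.

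**Figure D2:**
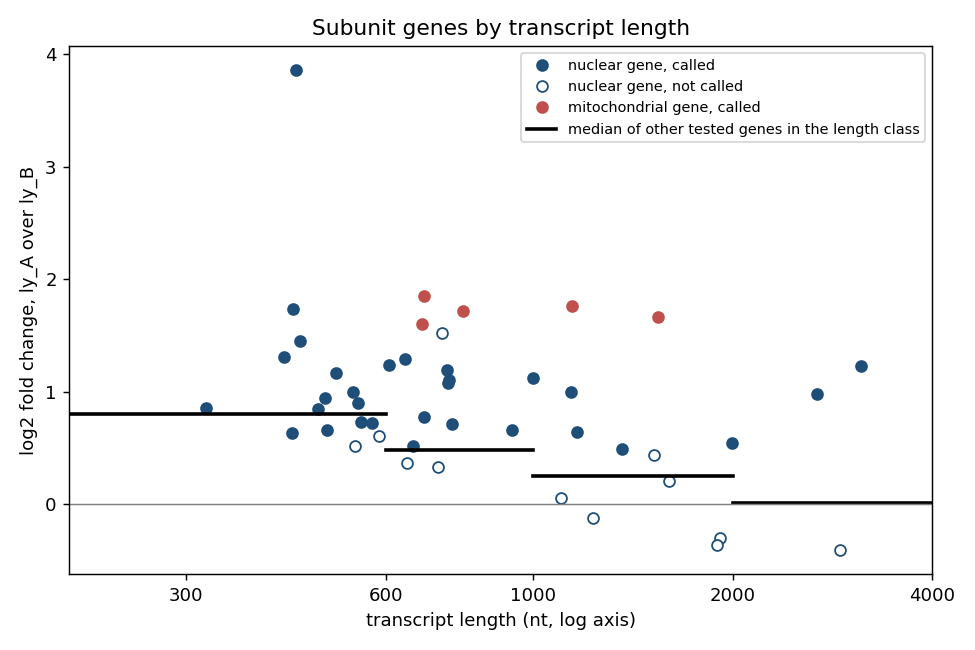
Log2 fold change, ly_A over ly_B, against transcript length in nt (log axis) for the 47 tested members (points; filled where called, red where mitochondrial), with horizontal bars for the median of other tested genes in each length class. The bars step down from 0.80 under 600 nt to 0.01 from 2000 to under 4000 nt, and the mitochondrial genes lie over 1 above the bars.

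**Figure D3:**
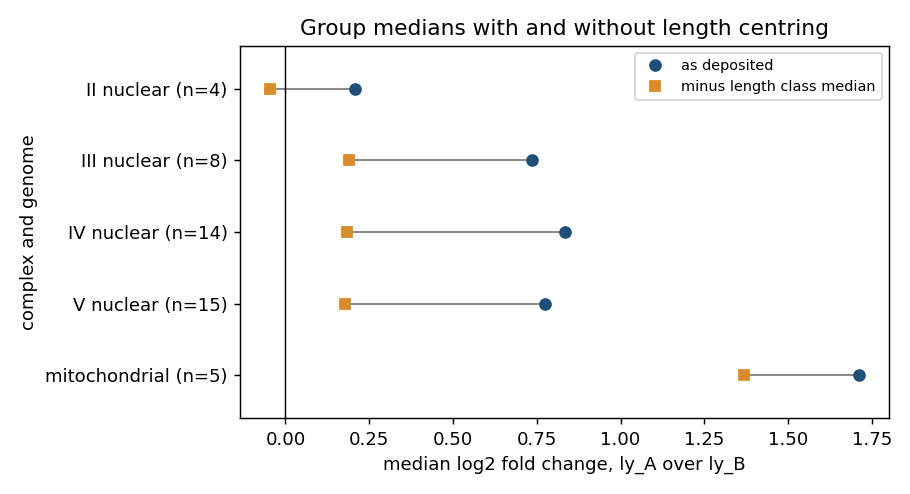
Median log2 fold change of the tested nuclear members of each complex and of the mitochondrial members, as deposited (circles) and after subtracting the median of other genes in the same length class (squares). The mitochondrial median goes from 1.71 to 1.37, that of complex II from 0.21 to -0.05, and those of nuclear complexes III, IV and V from 0.74, 0.83 and 0.77 to 0.19, 0.18 and 0.18.

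The promoters of the nuclear members were searched for motifs of factors known to drive respiratory chain genes. RefSeq windows from 250 bases before to 50 after the start (GRCm38.p6) matched 34 of the 45 nuclear members, of which 1, Atp5f1, matched under its newer symbol. A transcript match showed 23 of these 34 windows to run along the gene's strand, and shares on the plus strand alone depend on that direction. The motifs were GCGC, any 2 bases and GCGC for NRF1, CCGGAAG for ETS factors such as GABPA, and AAGATGGC for YY1, on both strands. The 5 stretches shown are upstream sequence of called members that hold such a motif, chosen after their values were seen. Each runs 5′ to 3′ on the gene's strand from 170 bases before the RefSeq start, stops where an annotated transcript begins, and has the motif letters in capitals.

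Uqcr11 (log2 1.45; chr10:80406831-80406991, minus strand, 1 ETS match): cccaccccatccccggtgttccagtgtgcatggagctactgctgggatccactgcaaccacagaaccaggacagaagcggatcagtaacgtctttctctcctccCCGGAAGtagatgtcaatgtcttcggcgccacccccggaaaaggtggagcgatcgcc
Atp5e (log2 1.31; chr2:174464106-174464271, minus strand, 1 ETS match): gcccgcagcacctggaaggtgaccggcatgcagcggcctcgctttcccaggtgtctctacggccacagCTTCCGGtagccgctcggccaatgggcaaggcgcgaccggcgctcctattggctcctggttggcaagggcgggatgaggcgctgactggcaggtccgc
Atp5h (log2 1.29; chr11:115419963-115420089, minus strand, 1 NRF1 match): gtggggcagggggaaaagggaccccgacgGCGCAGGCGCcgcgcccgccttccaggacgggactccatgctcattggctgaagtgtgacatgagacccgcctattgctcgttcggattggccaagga
Uqcrh (log2 0.84; chr4:116075072-116075240, minus strand, 1 ETS match): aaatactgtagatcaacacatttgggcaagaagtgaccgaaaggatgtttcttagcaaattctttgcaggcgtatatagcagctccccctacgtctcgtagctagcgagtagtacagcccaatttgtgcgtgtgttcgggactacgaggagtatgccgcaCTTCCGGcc
Cox6a1 (log2 0.72; chr5:115348982-115349128, minus strand, 2 NRF1 matches): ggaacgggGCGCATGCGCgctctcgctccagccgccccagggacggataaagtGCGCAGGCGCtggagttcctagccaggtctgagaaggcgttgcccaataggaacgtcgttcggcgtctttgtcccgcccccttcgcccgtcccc

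The ETS motif was found in 12 of 34 member promoters (35.3%), against 18.1% of 11175 promoters of tested genes and 9.93% of all 27025 genes with a window. On the plus strand alone that order turned, with 8.82% of members against 10.1% of tested genes. The NRF1 motif was found in 9 of 34 (26.5%), against 13.8% and 6.997%. The YY1 motif was found in 3 of 34 (8.82%), against 4.82% and 3.19%. A match to at least 1 of these 3 motifs stood in 19 members. Of the 12 tested members with the ETS motif, 11 were higher in ly_A with a median of 0.92, and of the 21 without it 13 were, with a median of 0.63, per the authors' deposited table. The exception among the 12 was Sdhd. Most of the 12 have transcripts under 600 nt, and most of the 21 do not. These medians were not set against length classes, so the part of transcript length in this contrast was not tested. Of the 9 with the NRF1 motif, 5 were higher in ly_A with a median of 0.64, and of the 24 without it 19 were, with a median of 0.92, per the authors' deposited table. Sdha, which was not called, has 3 NRF1 matches within 100 bases before its start. Its window overlaps transcripts of a neighbouring gene, so it is not shown. The CCAAT box (CCAAT) stood in 55.9% of member promoters against 42.6% of those of tested genes, TCAAGGTCA, a site of estrogen-related receptors, in 5.88% against 0.34% (0% against 0.161% on the plus strand alone), and the TATA box (TATAAA) in 5.88% against 9.71%. The share of members with the receptor site rests on 2 promoters. No test was made of these shares, and a match of letters is not a bound site.

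Factors that regulate or assemble the complexes were called in both directions, as were genes at large. Of all tested genes, 18.1% were higher in ly_A and 17.7% in ly_B per the authors' deposited table. The regulators stood at 38.5% higher in ly_A, transcription and replication genes at 20% and complex IV assembly factors at 30.4%. These lists are short, and their counts are not read as a result about such factors. Of 13 tested nuclear regulators of mitochondrial genes, 5 were higher in ly_A and 3 in ly_B, with a median of -0.28 per the authors' deposited table. The receptors Esrrg at 3.52 and Esrrb at 3.03 and the coactivator Ppargc1b at 1.65 differed most among the called genes, all towards ly_A with an adjusted p of at most 0.0171, per the authors' deposited table. Of 15 genes of mitochondrial transcription and replication, 3 were higher in ly_A and 1 in ly_B per the authors' deposited table. Mterf3 stood at 0.81, Slirp, which stabilises mitochondrial mRNA, at 0.76 and Top1mt at 0.65 per the authors' deposited table. Of 23 assembly factors of complex IV, 7 were higher in ly_A and 4 in ly_B per the authors' deposited table. Cox17, the copper chaperone, stood at 1.19 and Coa4 at 1.22, while Cox15, of heme A synthesis, was higher in ly_B at -1.05 per the authors' deposited table.

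Assembly factors of the other complexes gave few calls. Of 6 for complex III, 2 were higher in ly_A, Uqcc3 at 1.65 and Uqcc2 at 0.96, per the authors' deposited table. Of 4 for complex II, only Sdhaf4 passed, at 1.05, while Sdhaf1 had a value of 1.37 (adjusted p = 0.0716), per the authors' deposited table. Of 5 for complex V, 0 passed, with 1 at an unadjusted p under 0.05, and the smallest p belonged to Tmem242 at 0.56 (adjusted p = 0.0531) per the authors' deposited table. Set against the 18.1% of all tested genes called higher in ly_A, these 3 calls are not read as a result about assembly factors. Coenzyme Q synthesis, which makes the carrier between complexes I or II and complex III, had 3 of 13 genes higher in ly_A and 1 in ly_B, with the kinase-like Coq8a at 2.55 and its relative Coq8b at -1.15, per the authors' deposited table.

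Complex I, the entry point for electrons from NADH, was also called towards ly_A: 29 of 36 nuclear and 6 of 7 mitochondrial subunits were higher in ly_A, and 0 were higher in ly_B at either an adjusted or an unadjusted p under 0.05, per the authors' deposited table. Its nuclear subunits had a median of 0.96, or 0.41 against their length classes, and the mitochondrial ones 1.51, or 1.13. For the nuclear members of complexes II to V these medians were lower, at 0.75 and 0.19, a difference that was not tested. Citric acid cycle enzymes of the same organelle had a median transcript length of 2518 nt, against 718.5 nt for the tested members. Of these 18 enzyme genes, 1 was higher in ly_A, Idh3g at 0.64 (adjusted p = 0.00801), and 0 in ly_B per the authors' deposited table. At an unadjusted p under 0.05 these counts were 2 and 1 per the authors' deposited table. Their median was 0.00, or -0.08 against their length classes. Mitochondrial ribosomal proteins had 20 of 75 genes higher in ly_A and 4 in ly_B, with a median of 0.32, or 0.07 against their length classes, from the authors' deposited table. Of 24 import and chaperone genes, 4 were higher in ly_A and 7 in ly_B, with the chaperone Hspa9 at -1.20 and the import receptor Tomm20 at -1.16 per the authors' deposited table. Of 11 tested genes of ATP/ADP exchange and uncoupling, 4 were higher in ly_A and 1 in ly_B, with the carrier Slc25a24 at -2.66 per the authors' deposited table. Among 16 genes of mitochondrial dynamics and mitophagy, 4 were higher in ly_A and 0 in ly_B, with Mief2 at 1.83 and the mitophagy receptor Bnip3 at 1.36 per the authors' deposited table. Of 14 hypoxia targets and regulators, 3 were higher in ly_A and 5 in ly_B, with the kinase Pdk1 at 1.59 and the factor Epas1 at -1.08 per the authors' deposited table. The background beside these counts was 18.1% of all tested genes higher in ly_A and 17.7% in ly_B per the authors' deposited table.

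**Figure D4:**
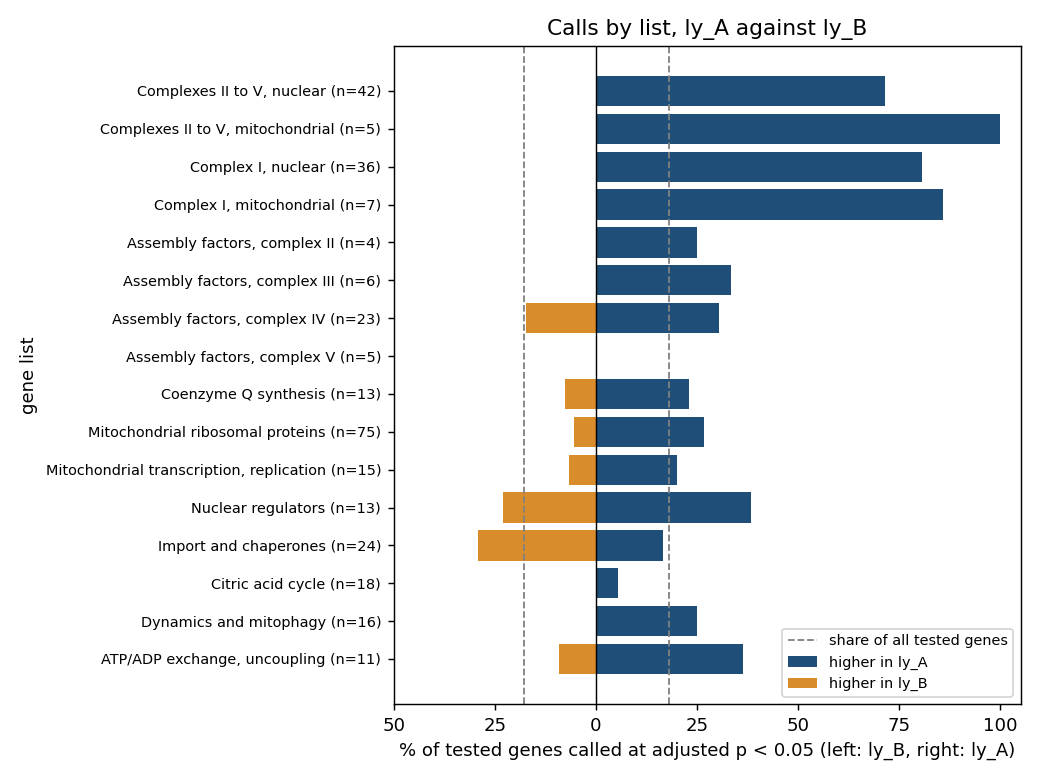
Share of tested genes in each list called higher in ly_A (right, blue) or higher in ly_B (left, orange) at an adjusted p under 0.05, with dashed lines at the shares of all tested genes, 18.1% and 17.7%. The nuclear and mitochondrial subunits of complexes I to V extend to 71.4% or more on the right and have none on the left, while the citric acid cycle bar stays at 5.56%.

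Some cell type markers were also called, and their part in the subunit values was not tested. Of all tested genes, 18.1% were higher in ly_A and 17.7% in ly_B per the authors' deposited table. The marker lists are short, so their counts are not read as a result about cell types. Of 6 hepatocyte markers, 2 were higher in ly_A and 0 in ly_B, with Apoa1 at 1.22 and Ttr at 1.07 but Alb at 0.19 (adjusted p = 0.565) and Cps1 at -0.52 (adjusted p = 0.133), per the authors' deposited table. Among 4 endothelial markers 3 were higher in ly_A, among 5 macrophage markers 2, and among 5 T and B cell markers 2, per the authors' deposited table. Of 4 tested stellate cell markers, Pdgfrb was higher in ly_B at -0.67 (adjusted p = 0.00842) per the authors' deposited table. Lrat at -0.81, Reln at -0.49 and Col1a1 at -0.66 did not pass per the authors' deposited table. At an unadjusted p under 0.05, all 4 were higher in ly_B per the authors' deposited table.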

How the data were processed

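Liver RNA libraries were compared in 2 sets of 3. The log2 fold change, p-value and adjusted p-value of each gene were used as the authors deposited them; DESeq2 and the build mm9 are named in the submitters' processing notes, and for aligner, counter and annotation nothing is stated in the sources used here. A positive log2 value is read as higher in ly_A, from the order of the comparison's name and the sign seen in the table's first lines when it was opened. The 18 columns of single libraries match no labelled sample and were not used in any calculation. Rows with an adjusted p of 1 (2312 of 16426) were treated as not tested; in the other 14114 the deposited value was a Benjamini-Hochberg adjustment over those rows (largest relative difference 9.47e-13). The authors' filter is not stated.

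Members and lists were chosen with earlier results of these data known. Every member may be named. Of each other list, named genes come from the 3 called genes with the largest differences, or from the 2 with the smallest p where fewer than 2 passed; all tested cell type markers could be named. Counts and medians were computed with pandas 2.3.3 and correlations with scipy 1.17.1, after a check on simulated data. Transcript lengths (51 members, 99.8% of tested genes) come from GENCODE M21 and promoters from RefSeq GRCm38.p6, both another build than mm9. Protein sequences were not used here, so the planned comparison of isoform pairs was not made.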

Additional observations from a re-analysis of the deposited data

How the results depend on the processing

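The count of members higher in ly_A was 35 as deposited, 29 at an adjusted p under 0.01, 34 with the p adjusted over all rows, 33 without isoforms of other tissues, 30 without mitochondrial genes, and 17 when a 2-fold difference was also required. The count higher in ly_B was 0 under each of these. After centring on the length class, a setting chosen after seeing the data, 31 of the 35 called members had a value above 0 and 4 a value below it. The centred values were not tested again, so these 4 are not calls towards ly_B. The median of all tested members went from 0.86 to 0.24 and that of complex II from 0.21 to -0.05. The centring put 10 members below 0 that were above it as deposited: Cox7c (-0.29), Atp5g2 (-0.20), Cox7a2l (-0.20), Uqcr10 (-0.18), Atp5g3 (-0.15), Atp5mpl (-0.15), Cox5a (-0.12), Cox6a1 (-0.081), Cox8a (-0.076) and Atp5f1 (-0.048). Centring on the median of all tested genes put Cox7a2l at -0.015 and left the member median at 0.79. The median was 0.94 with untested members, 0.81 without isoforms of other tissues and 0.75 without mitochondrial genes. On the plus strand alone, the ETS motif stood in 8.82% of member promoters against 10.1% of those of tested genes, the CCAAT box in 32.4% against 24.9% and the TCAAGGTCA site in 0% against 0.161%, so the members' shares of the ETS and TCAAGGTCA motifs were then the lower ones. NRF1 kept 26.5% because its letters read the same on both strands. Leaving out single libraries was not run, since no library column was used. No paired analysis was possible because the columns of single libraries carry no label that ties them to the numbered samples.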
